A study of Mus musculus with 12 samples.

Results

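Of the 1522 chromatin intervals more open in Zfp266 knockout (KO) than in control cells at 72 h of reprogramming, 230 had an intermediate mean level in fibroblasts, here called partly open. An interval belonged here when its mean level over the 6 fibroblast libraries was at least 0.5 of, and still under, its mean level in the 3 reprogramming control libraries. Of the other openings, 1036 were lower than that in fibroblasts and 256 were as open there as in reprogramming control cells or more open. All of them come from a union of 273256 intervals in which at least 1 group had a peak. The 230 intervals were thus chosen by the normalised read counts of the reprogramming libraries and the MEF mean, and those values are given as a description, with no test. The level is a normalised read count, the reads in the interval divided by the library's size factor.

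Open DNA was read by Omni-ATAC-seq, in which the Tn5 transposase cuts and tags it, with 50000 sorted cells for a library. The cells were passage-2 mouse embryonic fibroblasts (MEFs) of strain 129 from E12.5 embryos. Per the study's methods, every group carried Cas9, a Nanog-GFP reporter and a doxycycline-inducible cassette of Oct4, Sox2, Klf4 and Myc (OSKM) with mOrange, from embryonic stem cells aggregated with morulae. The 4 groups of 3 libraries were MEF control and MEF KO, kept in MEF medium without doxycycline, and reprogramming control and reprogramming KO, with doxycycline at 300 ng/ml and vitamin C at 10 µg/ml in the medium for 72 h and sorted for mOrange. By the same methods, the reprogramming medium also held the cytokine LIF and lacked the FGF2 and heparin of MEF medium. Reprogramming cells were plated among an excess of wild-type MEFs, and the MEF groups were not. Control cells received a non-targeting sgRNA and KO cells an sgRNA against Zfp266, and all groups were taken 96 h after transduction. The KO groups are transduced populations and not clones, the labels give wild type as the genotype of the control cells, and the labels do not tell whether replicates were separate cultures, so p-values measure the spread between these libraries, which may be technical. ATAC-seq carries no marker of cell identity by itself, and the editing of Zfp266 and the defining markers of MEFs could not be checked from the interval counts used here.

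ZFP266 is a zinc finger protein with a KRAB domain, a domain that in many such proteins recruits the corepressor TRIM28 and repressive histone methylation. B1 elements are short interspersed repeats of rodents that descend from the 7SL RNA gene, each with a defined start, the head, and an A-rich end, the tail. AP-1 factors such as FOS and JUN hold many fibroblast enhancers open, while KLF4 and OCT4 with SOX2 open new sites when OSKM is induced. Accessibility in a bulk library cannot tell a site open in fewer cells from a site less open in each cell.

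A B1 element lay in 178 of the 230 intervals (77.4%, 95% Wilson interval 71.6 to 82.3, which covers counting error only). In total 265 B1 copies were found, with 109 intervals holding 1 copy, 54 holding 2 copies and 15 holding 3 to 5. A few copies are printed because the KLF strings found in B1 lie in its head. The first line is a consensus built from copies in the reprogramming openings, and the capitals mark the first bases of the head as each copy has them. In the first 5 copies the capitals are GGGCGTG or GGGTGTG, the strings searched for KLF, and in the last 3 they are GGGCGGTGG or GGGCAGTGG or GGGCATG, variants picked after the values had been seen.

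B1 consensus of the openings, GRCm38: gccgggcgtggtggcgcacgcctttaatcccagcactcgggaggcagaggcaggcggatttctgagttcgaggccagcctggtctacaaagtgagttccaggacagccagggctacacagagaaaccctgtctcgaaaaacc
Intron of Prcc, chr3:87864382-87864522, plus strand: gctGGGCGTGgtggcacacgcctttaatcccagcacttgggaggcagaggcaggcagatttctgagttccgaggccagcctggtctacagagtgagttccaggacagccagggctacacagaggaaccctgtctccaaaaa
Intron of Cbfa2t2, chr2:154444259-154444396, minus strand: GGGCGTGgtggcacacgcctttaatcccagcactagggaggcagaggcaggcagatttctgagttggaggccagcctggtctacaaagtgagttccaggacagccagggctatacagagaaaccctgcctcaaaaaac
Intron of Xiap, chrX:42074625-42074766, minus strand: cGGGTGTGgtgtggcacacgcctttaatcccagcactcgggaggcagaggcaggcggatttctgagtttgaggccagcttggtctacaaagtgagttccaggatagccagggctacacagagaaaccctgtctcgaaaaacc
Start site near Zc3hc1, chr6:30346348-30346481, plus strand: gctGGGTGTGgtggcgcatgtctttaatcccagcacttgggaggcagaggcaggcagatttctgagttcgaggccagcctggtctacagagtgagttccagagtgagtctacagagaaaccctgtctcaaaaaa
Start site within Cbx1, not its own, chr11:96796059-96796197, minus strand: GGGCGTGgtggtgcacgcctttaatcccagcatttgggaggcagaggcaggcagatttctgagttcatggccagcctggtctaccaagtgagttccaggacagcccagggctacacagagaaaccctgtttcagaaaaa
Intron of Gata4, chr14:63255397-63255535, minus strand: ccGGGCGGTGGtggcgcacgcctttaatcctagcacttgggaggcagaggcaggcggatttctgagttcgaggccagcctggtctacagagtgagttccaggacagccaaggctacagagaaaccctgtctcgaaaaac
Intergenic near Jade2, chr11:51873450-51873592, plus strand: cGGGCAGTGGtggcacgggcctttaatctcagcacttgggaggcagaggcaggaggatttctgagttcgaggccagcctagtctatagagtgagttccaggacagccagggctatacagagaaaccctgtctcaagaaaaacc
Start site of Cep295, chr9:15356363-15356490, minus strand: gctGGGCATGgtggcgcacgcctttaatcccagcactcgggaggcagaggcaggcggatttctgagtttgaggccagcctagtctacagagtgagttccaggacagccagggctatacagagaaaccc

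Most KLF strings in B1 copies sat at the head. GGGTGTG or GGGCGTG, searched on both strands, began within bases 1 to 20 of the B1 in 90 of the 230 intervals, against 2 intervals with such a string within bases 21 to 60 and 1 further along the copy. Beside the copy it lay before the head in 13 intervals and after base 140 in 4. Among the 174 copies that started at base 4 or before, 93 (53.4%, 46.0 to 60.7) carried the string in bases 1 to 20. The same share was 33.0% (32.1 to 33.9) over the 10763 such copies in all intervals of the union. The openings lower in MEFs had 59.3% (55.5 to 63.0) and those at or above control level 61.4% (53.9 to 68.5), so the share of the 230 was the lowest of the 3 sets, with overlapping intervals. At the very first bases, 60 of the 174 copies read GGGCGTG and 31 read GGGTGTG, while 18 read GGGCAGTGG, 14 read GGGCGGTGG and 8 read GGGCATG. The string GGGCGTG made up 34.5% (27.8 to 41.8) of these copies and 21.6% (20.8 to 22.3) of those in the union, against 39.8% (36.1 to 43.5) and 40.4% (33.2 to 48.0) in the other sets of openings. The 265 copies were also nearer to the consensus, with a median identity of 90.1% against 83.7% over all 26414 copies in the union, 91.4% in the openings lower in MEFs and 89.2% in those at or above control level, although that consensus was built from copies in the reprogramming openings.

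**Figure D1:**
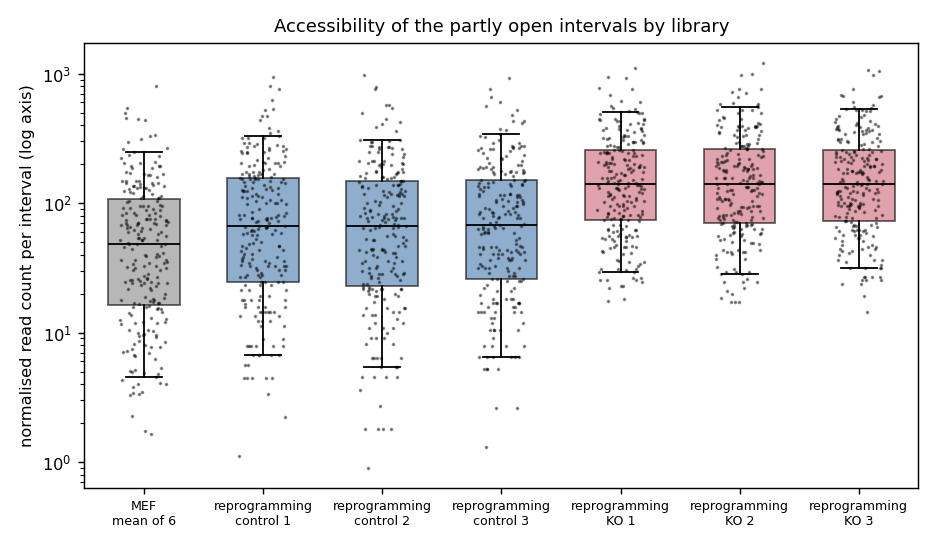
Normalised read count (log axis) of the 230 intervals as the mean of the 6 MEF libraries and in each reprogramming library. Points are intervals, boxes span the quartiles with the median as a line, and whiskers reach the 5th and 95th percentiles. The medians of the 3 control libraries sit at 66.7 to 67.2 and those of the 3 KO libraries at 139.5 to 140.5, over a MEF median of 48.4.

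The 230 intervals rose in steps from MEFs to reprogramming control and then to reprogramming KO. The median level was 48.4 as the mean of the 6 MEF libraries, with a range from 1.64 to 796. In reprogramming control the library medians were 67.0, 66.7 and 67.2 (mean 67.0 ± 0.276 SD, n = 3), and in reprogramming KO they were 139.5, 140.2 and 140.5 (mean 140.1 ± 0.511 SD, n = 3). At each of the 230 intervals every KO library lay above every control library, which the choice of intervals all but fixes, since 0.557% of the 273256 intervals are listed as more open in reprogramming KO and the 230 were taken from that list. The median interval stood at 0.679 of its control level in MEFs and at 2.08 times its control level in KO (log2 1.06). The step from control to KO was larger than the step from MEFs to control at 223 of the 230 intervals and at least 2 times as large at 175. The lower bound keeps the step from MEFs to control to at most 0.5 of the control level, so the 191 intervals at 1.5-fold or more had to meet the first of these counts and the 124 at 2-fold or more the second.

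Fold and gain in counts moved in opposite directions with the control level. KO was at least 2-fold over control at 124 intervals, at least 3-fold at 55 and under 1.5-fold at 39, from a ratio of 1.19 up to 9.20. Across the 230 intervals the log2 ratio of KO to control fell with the log2 control level (Pearson r = -0.863, Spearman rho = -0.866), a description over intervals that share the same 6 libraries and in which the control mean enters both axes and which had to pass a count test that asks for a larger fold at low counts. In normalised counts the gain went the other way. The 48 intervals with a control mean under 20 gained a median of 28.0 counts, the 94 from 20 to 100 gained 57.8 and the 88 at 100 or more gained 115.6. Their median lengths rose in the same order, 472.5, 1091 and 1940 bases. The gain was not scaled to length, so longer intervals with more reads could not be told from stronger opening. The median ratio of KO to control was 2.23 at the 159 intervals with a MEF level under 0.75 of control and 1.90 at the other 71, as a description only, since the rule bounds that place and the control mean is in both ratios.

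**Figure D2:**
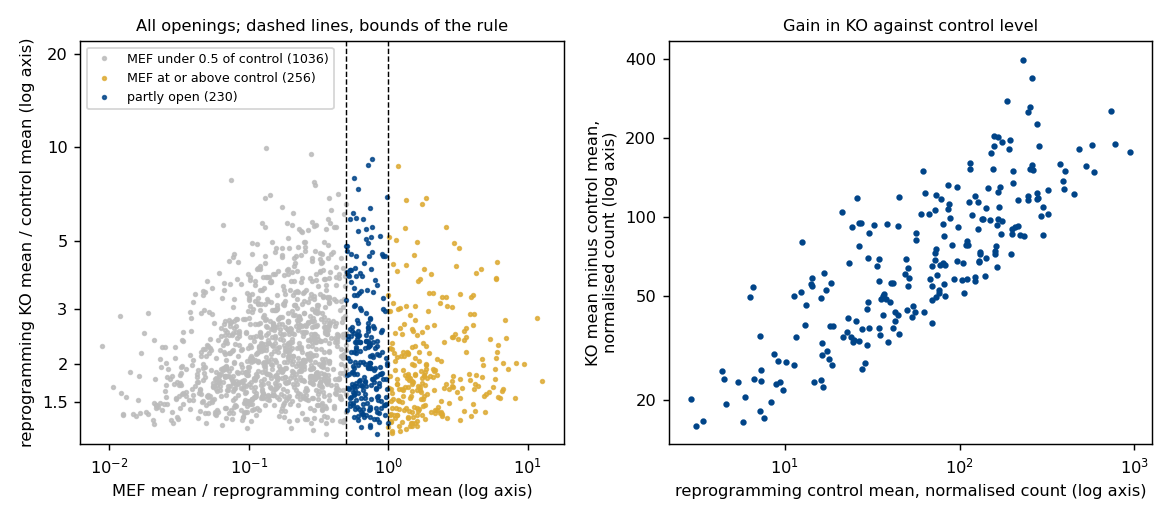
Left, ratio of KO to control mean against ratio of MEF to control mean for the 1522 openings (log axes), with the bounds of the rule dashed. Right, gain in normalised count against the control mean for the 230 intervals (log axes): the gain is larger where the control level is higher, while the fold is smaller. Counts are not scaled to interval length, which also rises with the control level.

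Part of the group is open in MEFs by ratio more than by a visible peak. Peaks called on the merged libraries of a group were present over 129 of the 230 intervals for MEF control (56.1%, 49.6 to 62.3) and 148 for MEF KO (64.3%). The reprogramming lists covered 146 for control (63.5%) and 229 for KO. In MEF control the share was 8.49% of the openings lower in MEFs and 88.3% of those at or above control level, an order that the choice by MEF level all but fixes, while in reprogramming control these sets, at 65.9% and 62.5%, were close to the 230. A peak in all 4 groups was found at 123 intervals and a peak in reprogramming KO alone at 72. None of the 48 intervals with a control mean under 20 had a peak in MEF control or in reprogramming control. At 100 counts or more, 85 of 88 had a peak in MEF control and 88 of 88 in reprogramming control. At the weak sites a ratio of small counts placed the interval between the bounds. The replicate spread was wide at some, as for the opening in an intron of Xiap, which read 1.12, 5.44 and 6.53 in control. At others it was narrow, as for the opening nearest to Tgfbr2, at 17.9, 15.4 and 17.0 in control.

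Peaks over these sites were broader in KO, as in the other openings. At the 123 intervals with a peak in every group the median length covered rose from 768 bases for MEF control to 854 for MEF KO, and from 949 for reprogramming control to 1375 for its KO. Where both reprogramming groups had a peak, the KO peak was the longer at 130 of 146 intervals and the shorter at 16, with a median ratio of 1.23, against 1.36 in the openings lower in MEFs and 1.43 in those at or above control level. B1 sequence made up 13.1% of the 60403 bases covered in KO alone and 8.83% of the 136546 bases covered in both, against 12.9% and 9.49% in the openings lower in MEFs and 12.4% and 6.04% in those at or above control level. Of the 173 B1 copies in these 146 intervals, 62 had their midpoint in bases covered in KO alone and 98 in bases covered in both. Peaks were called on pooled reads of the same libraries that chose the intervals, so these widths have no replicate error and move with the level.

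At the bounds the choice was close. The nearest openings inside the lower bound were on chromosome 7 near Zfp710, with 4.91 in MEFs against 9.81 in control (a ratio of 0.501), and on chromosome 5 near Tbx3, with 12.1 against 24.1 (0.502). Just outside it lay openings on chromosome 11 at 0.499 (138.1 against 276.9) and chromosome 17 at 0.499 (41.4 against 82.9). Inside the upper bound lay the Xiap opening at 0.989 (4.31 against 4.36) and one on chromosome 1 near Shcbp1l at 0.997 (297.6 against 298.6). Just outside it were openings on chromosome 2 at 1.00 (73.0 against 72.9) and chromosome 4 at 1.00 (1117.5 against 1114.1).

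Fibroblast values by library exist for the 13 of the 230 intervals that are also listed as more open in MEF KO. They are 5.65% of the 230 (3.33 to 9.43) and 2.71% of the 479 MEF openings, against 0.175% of the 273256 intervals listed as more open in MEF KO. Among openings lower in MEFs the share was 2.03% and among those at or above the control level 14.1%, and the median MEF level moved with it, from 8.17 through 48.4 to 141.8. The count test has more reads to work on where the level is higher, and the part of the level in these shares was not tested. In a retest with edgeR, all 13 had an adjusted p under 0.05, which the selection of the list all but fixes; by that rule too 0.175% of the 273256 intervals were more open in MEF KO.

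**Figure D3:**
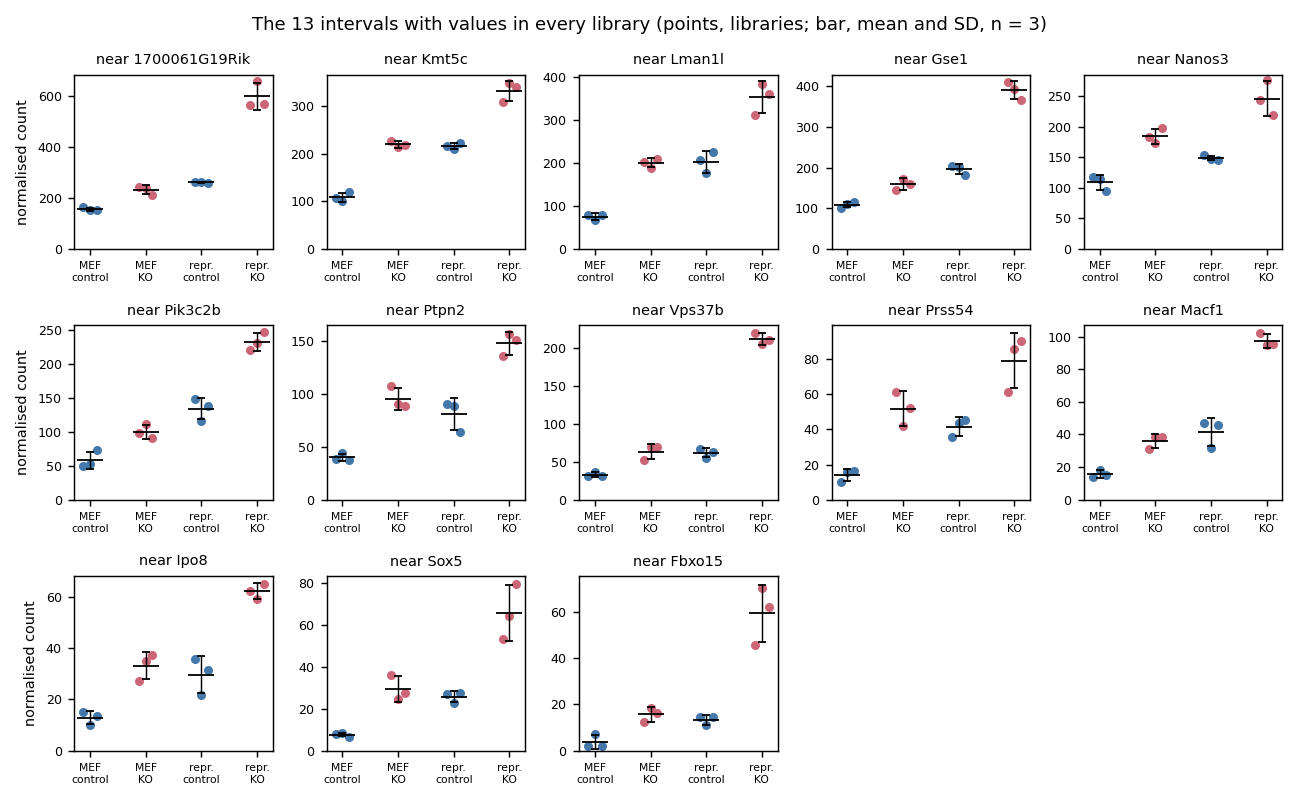
Normalised read count in each library of the 13 intervals with values in MEFs and reprogramming, named by the nearest protein-coding gene and ordered by reprogramming control level. Points are libraries and the bar is the mean with its SD (n = 3); each panel has its own axis from 0, and in each panel the 3 KO libraries lie above the 3 control libraries in both cell states.

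For these 13 the pooled MEF mean can be set beside its parts. In MEF control alone, 9 of the 13 were under 0.5 of the reprogramming control level, with a median ratio of 0.434 (0.287 to 0.731). In MEF KO alone the median ratio was 1.02 (0.747 to 1.25), and at 8 of 13 the MEF KO mean lay above the reprogramming control mean. Reprogramming KO remained above MEF KO at all 13, where MEF KO reached 0.264 to 0.751 of it. That control was lower and KO higher in MEFs is fixed by the listing that gave these sites library values. For the other 217 intervals MEF control and MEF KO levels were not analysed separately here.

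Within an intron of Fbxo15, an F-box gene transcribed in embryonic stem cells, lay the opening with the largest MEF fold change. It spans bases 84940857 to 84941309 of chromosome 18. Its MEF control values were 2.16, 7.33 and 1.91 and its MEF KO values 12.3, 18.5 and 16.2, and its reprogramming values were 14.5, 10.9 and 14.4 in control and 45.7, 70.1 and 61.9 in KO. The groups did not overlap in either cell state, and MEF KO overlapped reprogramming control. KO exceeded control 4.12-fold in MEFs (log2 2.07 ± 0.484 SE, edgeR adjusted p = 0.0119) and 4.47-fold in reprogramming. This call was lost with DESeq2 (adjusted p = 0.150) and without MEF control library 1 (0.763) or 3 (0.656) or MEF KO library 2 (0.219) or 3 (0.0516). The log2 difference in the settings that lost the call ran from 1.73 to 2.08. Without MEF control library 2, the highest of the 3, the log2 difference rose to 2.88 (edgeR adjusted p = 0.00390).

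An opening in an intron of Lman1l, at bases 57618759 to 57619509 of chromosome 9, had the smallest p in MEFs and no B1. MEF control read 79.1, 66.0 and 79.4 and MEF KO 202.4, 187.9 and 208.0, a 2.67-fold difference (log2 1.40 ± 0.119 SE, edgeR adjusted p = 5.47e-27). In reprogramming, control read 206.7, 175.1 and 224.5 and KO 312.0, 383.8 and 360.4, or 1.74-fold. MEF KO and reprogramming control overlapped here too, at 199.4 ± 10.4 and 202.1 ± 25.0 (SD, n = 3).

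Near Kmt5c, which encodes a histone H4 lysine methyltransferase, the opening at bases 4732124 to 4733500 of chromosome 7 was of the same kind. It read 106.4, 99.9 and 118.6 in MEF control and 226.2, 213.2 and 219.1 in MEF KO (log2 1.02 ± 0.104 SE, edgeR adjusted p = 1.52e-18), and 216.8, 210.5 and 223.2 in reprogramming control and 308.3, 348.1 and 341.3 in KO. It had no B1 either.

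Other sites had the larger ratio of KO to control in reprogramming. Among them the largest gap between the ratios was at the opening near Vps37b, which encodes an ESCRT subunit, at bases 124051827 to 124053033 of chromosome 5, over an annotated start site and with 1 B1. Its MEF values were 30.9, 36.6 and 30.6 in control and 51.6, 69.3 and 68.7 in KO, a 1.93-fold difference (log2 0.95 ± 0.183 SE, edgeR adjusted p = 0.000162). In reprogramming it read 67.0, 55.3 and 62.7 in control and 219.6, 204.2 and 209.6 in KO, or 3.42-fold. MEF KO and reprogramming control overlapped, and reprogramming KO stood apart from all other groups.

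Over the 13, KO over control ran from 1.46-fold to 4.12-fold in MEFs (median 2.28) and from 1.53-fold to 4.47-fold in reprogramming (median 2.00). The MEF fold was the larger at 7 of 13, while the gain in normalised counts was the larger in MEFs at 1 of 13, an opening near Prss54 with gains of 38.0 and 37.6. In counts the widest gap was at the opening in an exon of 1700061G19Rik, which gained 75.6 in MEFs and 337.4 in reprogramming. The difference between the 2 cell states was not tested. A peak of MEF control lay over 7 of the 13 and a peak of MEF KO over all 13. The remaining sites lay in introns of Pik3c2b, Macf1, Gse1, Sox5 and Ptpn2, in exons of Ipo8 and of 1700061G19Rik, and near Nanos3.

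AP-1 strings were found in 5 of the 13, with 9 of the 13 holding a B1 and 7 a KLF string in the 400 bases around the midpoint. The 3 of these sites that have an AP-1 string and no B1 are printed with TGACTCA, as it reads on either strand, in capitals.

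Intron of Lman1l, chr9:57619022-57619088, plus strand: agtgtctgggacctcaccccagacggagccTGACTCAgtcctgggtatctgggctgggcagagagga
Intron of Sox5, first string, chr6:144124401-144124467, plus strand: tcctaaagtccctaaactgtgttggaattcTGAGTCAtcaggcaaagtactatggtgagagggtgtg
Intron of Sox5, second string, chr6:144124522-144124588, plus strand: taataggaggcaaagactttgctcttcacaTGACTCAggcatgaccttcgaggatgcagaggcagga
Exon of Ipo8, chr6:148771674-148771740, plus strand: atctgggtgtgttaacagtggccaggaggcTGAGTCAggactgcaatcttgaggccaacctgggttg

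The site in the Sox5 intron had both strings within 341 bases. It had a called peak in MEF KO alone, and none in either reprogramming group. Its MEF values were 7.91, 8.25 and 6.69 in control and 36.1, 24.7 and 27.3 in KO (log2 1.92 ± 0.323 SE, edgeR adjusted p = 3.33e-06), and in reprogramming 26.8, 22.7 and 27.4 against 53.1, 64.0 and 79.4. The Ipo8 site read 15.1, 10.1 and 13.4 in MEF control and 27.0, 35.0 and 37.4 in MEF KO (log2 1.33 ± 0.270 SE, edgeR adjusted p = 0.000555). Groups did not overlap at either site within a cell state.

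Over the 230 intervals AP-1 strings stood between those of the other openings. TGACTCA, on both strands of the central 400 bases, was in 40 intervals (17.4%, 13 to 22.8), in 13.3% of the openings lower in MEFs (11.4 to 15.5), in 24.2% of those at or above control level (19.4 to 29.8) and in 18.5% of all intervals of the union. The interval of the 230 overlaps both of the others. Of the 52 intervals without a B1, 13 had the string (25.0%, 15.2 to 38.2), and of the 178 with one, 27 had it (15.2%, 10.6 to 21.2).

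KLF strings were about as frequent as in the openings lower in MEFs. GGGTGTG or GGGCGTG lay in the central 400 bases of 81 intervals (35.2%, 29.3 to 41.6), in 37.0% (34.1 to 40.0) of the openings lower in MEFs, in 23.0% (18.3 to 28.6) of those at or above control level and in 15.1% of the union. With B1 sequence masked the shares were 21.7%, 21.1%, 12.9% and 14.6%. In the 52 intervals without a B1 the string was in 23 (44.2%, 31.6 to 57.7), against 58 of the 178 with a B1 (32.6%, 26.1 to 39.8), with overlapping intervals. Once the B1 was masked, which leaves fewer bases to search, it was in 27 of the 178 (15.2%, 10.6 to 21.2). A string match does not say that a factor was bound.

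In the central 400 bases, OCT, SOX and TEAD strings were less frequent than over the union, and RUNX strings were not. ATGCAAA, searched for OCT, was in 11 of the 230 (4.78%, 2.69 to 8.36), against 8.60% of the union. The openings lower in MEFs had 9.56% (7.91 to 11.5) and those at or above control level 9.38% (6.38 to 13.6), with intervals that overlap that of the 230. CATTGT, searched for SOX, was in 43 (18.7%, 14.2 to 24.2), against 26.3% of the openings lower in MEFs, 18.4% of those at or above control level and 24.3% of the union. CATTCC for TEAD was in 42 (18.3%) and TGTGGTT for RUNX in 31 (13.5%), against 24.7% and 11.9% of the union. Each string was searched on both strands in the same 400 bases. Over the whole, longer intervals the order against the union turned, with OCT in 19.6% against 17.4%, SOX in 50.4% against 41.6%, TEAD in 51.7% against 43.0% and, of the strings above, AP-1 in 40.9% against 31.1%.

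**Figure D4:**
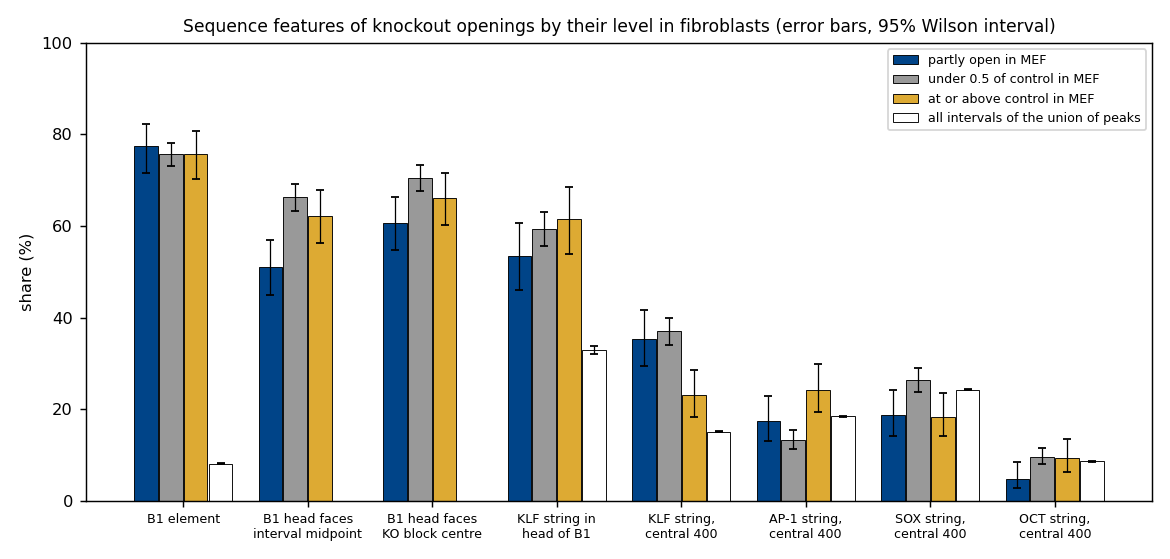
Share in percent of the 230 intervals, of the other 2 sets of openings and of all intervals of the union with each feature; error bars are 95% Wilson intervals, and the facing of B1 was not measured over the union (no open bars). The B1 share is near 76% to 77% in each set of openings, while the facing of B1 toward the interval midpoint is lowest in the partly open set, 50.9%.

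B1 elements were as frequent here as in the other openings, at 77.4% against 75.7% and 75.8%, and 8.05% over the union. The intervals are longer than most, with a median of 1211 bases against 732 in the union, so equal windows are the fairer comparison: within the central 400 bases 81 of 230 held a B1 (35.2%, 29.3 to 41.6), against 39.3% of the openings lower in MEFs, 25.4% of those at or above control level and 3.01% of the union. By level the share ran from 70.8% (56.8 to 81.8) in the 48 weakest intervals to 84.1% (75 to 90.3) in the 88 strongest, which were also 1940 bases long at the median against 472.5.

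Fewer B1 heads pointed inward than in the openings lower in MEFs when direction was read against the midpoint of the interval. Of the 265 copies, 135 had the head nearer to the midpoint than the tail (50.9%, 45.0 to 56.9), whereas 664 of 1002 did in the openings lower in MEFs (66.3%, 63.3 to 69.1) and 168 of 270 in those at or above control level (62.2%, 56.3 to 67.8), whose interval overlaps that of the 230. For copies of at least 100 aligned bases it was 46.7% (40.1 to 53.4) in the 230. The openings lower in MEFs had 62.0% (58.4 to 65.3) and those at or above control level 61.7% (54.9 to 68.0). There the interval of the 230 overlapped neither. The head lay a median of 350.5 bases from the midpoint here, 220.2 in the openings lower in MEFs and 385.8 in those at or above control level. The midpoint is that of peaks of all groups joined together. Read against the centre of the longest block of the reprogramming KO peak instead, a measure added after the values had been seen, 159 of 262 copies had the head inward (60.7%, 54.7 to 66.4), against 70.4% (67.5 to 73.2) and 66.0% (60.1 to 71.5). Within 300 bases of that centre it was 100 of 147 (68.0%, 60.1 to 75), against 73.4% (69.9 to 76.7) and 67.2%, and the intervals overlapped. Against the midpoint the gap did not narrow near the centre: within 200 bases of it 44 of 91 copies had the head inward (48.4%, 38.4 to 58.5), against 66.6% (62.0 to 70.9) of the openings lower in MEFs and, with an overlapping interval, 61.6% (50.2 to 71.9) of those at or above control level. The gap to the openings lower in MEFs was thus smaller with the centre of the KO block, where over all copies the intervals still did not overlap.

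Intervals whose B1 head carried a KLF string had somewhat higher ratios. The 87 with GGGCGTG or GGGTGTG at the head had a median ratio of KO to control of 2.29 (quartiles 1.75 to 3.30), and 54 of them (62.1%) reached 2-fold. The 31 with only GGGCAGTGG or GGGCGGTGG or GGGCATG had a median of 1.96 (1.47 to 3.37), with 15 at 2-fold, and the 60 with other copies had 1.92 (1.55 to 2.42), with 26. The 52 without a B1 had 2.06 (1.69 to 2.84), with 29 (55.8%) at 2-fold. The median control level was 69.7, 55.5, 104.6 and 50.5 in these 4 groups, and the ratio falls with that level across the 230. The quartiles overlap throughout, and the ratio comes from the contrast that chose the intervals.

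The largest ratios were at sites with few reads in control. One lay between Rfx3, a transcription factor gene of ciliated cells, and its neighbour, 111758 bases from the start site of Rfx3. This opening, at bases 27724655 to 27725088 of chromosome 19, read 4.47, 9.98 and 5.22 in control. In KO it read 46.7, 67.7 and 66.7, a ratio of 9.20, with a MEF mean of 5.06. An opening in an intron of Dnajc1, at bases 18324320 to 18324852 of chromosome 2, read 6.70, 4.54 and 7.83 against 41.2, 68.9 and 57.2, a ratio of 8.77. The groups were far apart at both sites, and none of the 8 sites with the largest ratios had a peak in either control group.

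Others of these 8 were better covered. In an intron of Prcc, at bases 87864128 to 87864728 of chromosome 3, control read 13.4, 25.4 and 24.8 and KO 143.6, 125.5 and 108.0, or 5.93-fold, and the MEF mean was lower than each of them. Near Nos2, the gene of inducible nitric oxide synthase, control read 15.6, 11.8 and 10.4 and KO 94.2, 87.3 and 96.8, or 7.35-fold, with a MEF mean of 7.72. The others lay 443101 bases from the start site of Robo2, in an exon of Art3, and in introns of Cbfa2t2 and Xiap. All 8 held a B1, as did 77.4% of the 230, with 76.6% of the intervals at 2-fold or more and 78.3% of the others.

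Most sites with the highest counts rose by small ratios. An opening in an intron of the chemokine receptor gene Cx3cr1, at bases 120010766 to 120013896 of chromosome 9, was the highest of all, at 945.3, 974.4 and 929.4 in control and 1105.2, 1209.3 and 1063.7 in KO, a ratio of 1.19 and the lowest of the 230. Its MEF mean was 795.7. Beside Jade2, whose product belongs to a histone acetyltransferase complex, control read 763.1, 787.5 and 661.8 and KO 939.6, 984.1 and 1051.0, or 1.34-fold, over a MEF mean of 544.9. These openings at Cx3cr1 and Jade2 were long, 3131 and 3101 bases. Per 1000 bases their KO levels were 359.6 and 319.8. By that measure the highest KO level of the 230 was at the Lman1l opening, 468.8, with a ratio of 1.74.

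One of the sites with the highest counts rose by a larger ratio. The opening at bases 30345897 to 30347747 of chromosome 6, over a start site with Zc3hc1 as the nearest protein-coding gene, read 244.7, 197.8 and 251.9 in control and 613.0, 591.7 and 681.1 in KO. That is 2.72-fold, and the gain of 397.1 counts was the largest of the 230. Its MEF mean was 166.1, and it held 1 B1 with GGGTGTG at the head, shown above.

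Start sites were a minor location. By its midpoint an interval lay within 1000 bases of a start site in 20 cases (8.70%, 5.70 to 13), in an exon in 7, in an intron in 124 (53.9%) and between genes in 79 (34.3%). The union had 11.2% within 1000 bases of a start site and 44.9% in introns. An interval overlapped a start site in 21 cases (9.13%, 6.05 to 13.6), against 4.44% (3.35 to 5.87) of the openings lower in MEFs and 11.7% (8.33 to 16.2) of those at or above control level. Overlap grows with length, and by the midpoint, which does not, the shares within 1000 bases were 7.82% (6.34 to 9.61) and 10.2% (7.03 to 14.5), with intervals that overlap that of the 230. The 20 had a median level of 150.4 in control and 247.7 in KO, or 1.71-fold at the median, and 16 of them held a B1.

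Among the start sites with the highest KO levels, at Cep295, a centriole gene, control read 533.0, 568.8 and 608.3 and KO 755.7, 765.2 and 754.1, over a MEF mean of 447.8. At Erbb3, which encodes a receptor of the EGF receptor family, the values were 627.9, 576.1 and 565.2 against 778.6, 763.9 and 671.6, over 435.5. At Snx6, a sorting nexin gene, they were 519.6, 538.0 and 520.8 against 683.4, 703.7 and 658.9, over 454.2. In each, KO stood above control without overlap, and the ratios were 1.33, 1.25 and 1.30.

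The Zc3hc1 site above, at 2.72-fold, is also among the 10 openings with the highest KO levels at or near a start site. Those near Vps37b (3.42-fold) and within Cbx1 (2.64-fold) overlapped a start site at lower levels. The remaining ones of the 10 ran from 1.25-fold to 1.42-fold. They were at Extl3, a heparan sulfate glycosyltransferase gene (1.25-fold), at Mlh3, a mismatch repair gene (1.37-fold), at the calpain subunit gene Capns1 (1.42-fold), near Mob4 (1.40-fold), beside Lmnb1, the gene of lamin B1 (1.34-fold), and at Gm10277 in Myo18a (1.42-fold).

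Of the 230 intervals, 5 (2.17%, 0.932 to 4.99) lay in or nearest to genes of the lists of pluripotency, epithelial, mesenchymal, AP-1, TGF-beta, senescence and corepressor genes, against 1.93% and 2.34% of the other sets of openings and 1.28% of the union. Of 28 pluripotency genes 2 were named by 1 interval each, Fbxo15 as above and Tbx3, a share of 0.870% (0.239 to 3.11) against 1.06% of the openings lower in MEFs, 0.781% of those at or above control level and 0.251% of the union. The Tbx3 opening, 84594 bases from its start site, read 24.6, 19.1 and 28.7 in control and 106.1, 104.6 and 136.5 in KO, or 4.80-fold, over a MEF mean of 12.1, and it had no B1. Tbx3 encodes a T-box factor active in embryonic stem cells. The lists of 22 epithelial genes, 22 AP-1 and fibroblast regulators and 12 senescence and p53 genes had 0 of the 230 intervals, where the union had 0.102%, 0.197% and 0.103%.

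Col1a2, a fibrillar collagen gene of fibroblasts, was the only one of 24 mesenchymal genes with such an interval, 77163 bases away. One interval is 0.435% of the 230 for each of the mesenchymal, TGF-beta and corepressor lists, against 0.345%, 0.257% and 0.0271% of the union. The Col1a2 opening read 49.2, 46.3 and 40.5 in control and 82.3, 82.4 and 77.8 in KO, or 1.78-fold, over a MEF mean of 35.1, and its central bases held an AP-1 string. Tgfbr2, the type II receptor of TGF-beta, was the only one of 21 genes of its pathway, with an opening 191371 bases away at 17.9, 15.4 and 17.0 in control and 75.9, 62.7 and 93.7 in KO, or 4.62-fold, over 8.45 in MEFs.

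Cbx1, which encodes the heterochromatin protein HP1-beta, was the only one of 11 corepressor genes. The opening at bases 96795622 to 96797384 of chromosome 11 lay within that gene and held 3 B1 copies, 1 of them shown above. It overlapped an annotated start site, but the nearest start site of Cbx1 itself lay 6373 bases away. Control read 77.1, 67.1 and 77.0 and KO 200.4, 175.9 and 208.0, or 2.64-fold, over a MEF mean of 57.6. The distance of an interval to a gene does not show that it acts on that gene.

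The 230 intervals lay on 20 chromosomes, with 25 on chromosome 11 as the most on any one. Their central windows had a median GC content of 44.8%, against 45.0% in the union. Reads in the listed intervals ran from 141616 to 324141 in the reprogramming libraries and from 33936 to 86490 in the MEF libraries, and size factors from 0.630 to 1.46. These sums cover only the listed intervals and are not the depth of the libraries. The coefficient of variation between replicates had a median of 10.8% in control and 8.35% in KO over the 230, and 10% of the intervals were above 31.9% in control.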

How the data were processed

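Omni-ATAC-seq was analysed from 12 libraries in 4 groups of 3, grouped by the sample titles. Per the study's methods, the authors trimmed adapters with Cutadapt, mapped reads to GRCm38 with BWA, dropped PCR duplicates, reads without a proper pair and reads of the mitochondrion or blacklisted regions, called peaks with MACS2, counted reads over a union of peaks with Rsubread and compared groups with DESeq2. The deposited tables hold whole read counts and the same counts divided by DESeq2 size factors (a normalised signal) for the 6 libraries of one cell state, with a mean over all 12, at intervals with an adjusted p-value under 0.05: 1608 in reprogramming and 480 in MEFs. They also hold the authors' log2 fold changes with standard errors, Wald statistics (a score) and p-values, none of which was used. The deposited peak lists give fold enrichment (a ratio), −log10 q values (and −log10 p, unused), display scores (10 times −log10 q) and block sizes (other fields), from merged libraries. Genome tracks were not used here.

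The MEF level was 12 times the mean over all libraries less the sum of the 6 reprogramming values, divided by 6. At the 70 intervals in both tables this lay within 1e-06 normalised counts of the mean of the 6 MEF libraries. It pools control and KO and has no SD. No test was made on values used by the rule. The 480 MEF intervals were fitted with edgeR 4.0.16 in R 4.3.3 (quasi-likelihood test, two-sided) with the deposited size factors, adjusted by Benjamini-Hochberg over 273256 tests. This is a retest on a list selected with the same libraries. In simulated counts for this comparison over 480 intervals, that adjustment called 27 of 100 changed 2-fold, 99 of 100 changed 4-fold and 0 of 280 unchanged. Adjusted over the 480 alone, 95, 100 and 8 were called. The simulation used the same dispersion for every interval and did not select the list, so it does not describe a retest of a selected list.

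B1 copies were matches to a 142-base consensus with blastn 2.17.0 (E-value under 1e-05, at least 60 aligned bases). The consensus was aligned with MAFFT 7.526 from 195 copies found with the 7SL RNA. Of matched bases 95.6% are masked as repeats in the reference, and a shuffled query gave 0 matches. Genes came from GENCODE M21, sequences from RefSeq's GRCm38.p6, and positions count from 1. Wilson intervals (95%) cover counting error only. Reads that map to many B1 copies may be placed or removed in ways that change counts there.

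Intervals were named by these rules: all members with MEF values, the 8 highest ratios, the 8 highest KO levels, the 10 highest within 1000 bases of a start site, 2 on each side of each bound, and all at genes of the lists. The members, lists and rules were chosen with earlier results of these data known. Alternatives changed the libraries used, the bounds, scaling, pseudocount, windows, overlaps and test.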

Additional observations from a re-analysis of the deposited data

How the results depend on the processing

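Leaving out 1 reprogramming library at a time and choosing again gave 228 to 236 intervals, of which 204 to 230 were among the 230, and a median log2 ratio of 1.00 to 1.13. It also gave shares of B1 and of each string within the intervals of the shares reported. A lower bound of 0.4 gave 306 intervals and one of 0.6 gave 157. Medians in place of means gave 238, 221 of them shared. Asking for 2-fold left 124. The median log2 ratio of 1.06 became 1.04 with a pseudocount of 1, 0.94 with 10, 0.95 with unscaled counts, 0.90 for intervals with a control mean of at least 20 (an alternative added after seeing the data) and 0.35 when libraries were scaled by their sum over the listed intervals, nearly all of which rose, so that this scaling removes much of the rise by its construction.

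Windows set the shares. B1 was in 64.3% with at least 100 aligned bases and in 35.2% within the central 400 bases. Over the whole interval AP-1 strings were in 40.9%, KLF in 69.6%, SOX in 50.4%, OCT in 19.6%, TEAD in 51.7% and RUNX in 33.5%, and in the central 200 bases in 10.0%, 16.5%, 12.2%, 1.74%, 10.4% and 7.39%. With B1 masked KLF was in 21.7%. Peaks that covered at least 50% of the interval were found in 27.4% (MEF control), 38.7% (MEF KO), 36.5% (reprogramming control) and 93.5% (reprogramming KO), and peaks with a −log10 q of at least 5 in 47.8%, 53.9%, 48.7% and 84.3%. Within 2000 bases of a start site lay 17.4%. The share of B1 heads facing inward was 60.7% with the centre of the KO block in place of the midpoint, also chosen after seeing the data.

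All 13 MEF calls remained with a replicate block, with adjustment over the 480 listed intervals alone and without MEF KO library 1 or MEF control library 2, and DESeq2 called 12. Leaving out 1 MEF library gave 9 to 13 calls, the fewest without MEF control library 1, where the openings at Pik3c2b, Macf1, Gse1 and Fbxo15 were lost. A mean count of at least 20 removed the Fbxo15 opening from the test and kept the other 12. Scaling to the listed intervals alone left none of the 13 called as more open in KO. With TMM the 1 call was the opening at 1700061G19Rik, then lower in KO (adjusted p = 0.00186), and with total counts edgeR made 0 calls among the 13, with 5 higher and 2 lower at an unadjusted p under 0.05. Adjusted p-values reached 1. There the log2 values turned negative at Pik3c2b (-0.23 and -0.084), Gse1 (-0.49 and -0.34), 1700061G19Rik (-0.47 and -0.32) and Nanos3 (-0.30 and -0.15), and with TMM only at Kmt5c (-0.027) and Vps37b (-0.093). Since 479 of the 480 listed intervals rose, scaling to them sets their typical change to 0 by construction. Same-numbered MEF libraries deviated together with correlations of 0.214, 0.138 and 0.043, which is under the limit for pairing at the last, so the number was not taken as a pair.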

Other observations

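Chromosome 11 held 25 of the 230 intervals and chromosomes 7 and 9 held 17 each, while chromosome 16 held 4 and chromosomes 13 and 18 held 5 each. These counts were not compared with chromosome length or gene density.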
